A study of Bos taurus with 14 samples.

Results

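NFKB1 (ENSBTAG00000020270) and NFKBIE (ENSBTAG00000013705) were followed across 14 cultured explants of bovine endometrium, the lining of the uterus. They are 2 of the 24616 genes counted. Both were chosen by their low p-values and lower counts with sPIF treatment in these same explants, so their difference between sPIF and Control is given below as a description, without a test. The measures that did not enter that choice are the differences between sequencing lanes and between serum progesterone groups and the relation of the genes to each other within 1 kind of explant. The levels in 1 kind of explant are still 1 side of the difference with sPIF, so that relation is not wholly free of the choice. The change of the sPIF effect across lanes and groups is part of the spread of the differences within cows, which entered the choice through the p-value, so a choice by low p favours genes with an even effect.

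NF-κB is a family of dimeric transcription factors that switch on genes of inflammation, leukocyte recruitment and cell survival. NFKB1 encodes a long precursor that is cut to a DNA-binding Rel subunit, and whose uncut form carries ankyrin repeats at its C-terminal end and can itself hold Rel subunits in the cytoplasm. NFKBIE encodes the inhibitor IκBε, one of the ankyrin repeat proteins that bind Rel dimers until a kinase complex marks them for degradation. Both genes are known targets of NF-κB itself, so that the pathway renews its own precursor and its own brake. In the uterus the pathway is known for its part in the response to infection and in the immune changes around implantation.

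Each of 7 heifers, whose uteri were collected at an abattoir, gave 1 Control and 1 sPIF explant of intercaruncular endometrium. Both came from the horn next to an ovary staged as follicular by its morphology. The study adds that serum progesterone was higher than expected in some samples, which it takes as a sign of the luteal phase. The sPIF explants were cultured for 30 h with 100 nM sPIF, a synthetic copy of preimplantation factor, a small peptide made by embryos. The Control explants were cultured for the same time in medium alone by the labels, to which the study's methods add the same amount of the solvent DMSO. RNA was sequenced in 2 lanes, with cows 1 to 4 in lane 1 and cows 5 to 7 in lane 2, where each library was sequenced in 2 runs whose counts were added.

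By the study's measurement of serum progesterone, cows 2 to 5 formed a high group and cows 1, 6 and 7 a low group. Lane and progesterone group are given by the study's text and not by the sample labels. No cow was in both lanes, so a difference between lanes and a difference between the cows in them cannot be told apart. The high group held 3 cows of lane 1 and 1 of lane 2, and the low group 1 of lane 1 and 2 of lane 2. Libraries held from 15885642 to 28625724 counts in total. An explant is a mixture of cells, so fewer cells that express a gene and less RNA per cell cannot be told apart. Of 52 marker genes of endometrial cell types and stress, only CNN1 and DNAJB1 could be paired with an identifier, so the makeup of the tissue was not checked.

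Levels are given as CPM, the counts of a gene relative to the TMM-normalised size of its library. In the Control explants, NFKB1 stood at 128, 105, 190.3 and 169.6 CPM in cows 1 to 4 and at 267, 167 and 267 CPM in cows 5 to 7. In the sPIF explants of the same cows it stood at 116, 81.4, 137 and 119.7 CPM and at 128, 108 and 150.3 CPM. Cows 5 and 7 were the highest Control explants, cow 2 was the lowest of both kinds, and the ranges of Control and sPIF overlapped. Within every cow the sPIF explant was the lower one.

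The mean NFKB1 level was 185 ± 62.8 CPM (SD, n = 7) in Control against 120.0 ± 22.0 CPM (SD, n = 7) in sPIF explants. The spread between cows was narrower with sPIF. The highest Control explant was 2.55-fold above the lowest, against 1.85-fold among sPIF explants, and the coefficient of variation was 34.0% and 18.3%. The Control level and the difference within a cow had a Pearson r of -0.866 over 7 cows for NFKB1 and of -0.681 for NFKBIE, with a Spearman rho of -0.821 and -0.786. The Control value enters both quantities, so this is a description and has no p.

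NFKBIE stood at 53.5, 58.6, 79.4 and 102 CPM in the Control explants of cows 1 to 4 and at 124, 106 and 196 CPM in those of cows 5 to 7. In the sPIF explants it stood at 47.1, 40.7, 49.6 and 70.6 CPM and at 64.8, 58.3 and 119.6 CPM. Cow 7 was the highest in both kinds of explant, and its sPIF explant stood above the Control explants of 5 other cows. The Control and sPIF ranges overlapped. As with NFKB1, the sPIF explant was the lower one within every cow.

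The mean NFKBIE level was 103 ± 48.6 CPM (SD, n = 7) in Control and 64.4 ± 26.5 CPM (SD, n = 7) in sPIF explants. The spread between cows narrowed less with sPIF than for NFKB1. The highest Control explant was 3.67-fold above the lowest, against 2.94-fold among sPIF explants, with a coefficient of variation of 47.3% and 41.1%. Across cows, the Control and sPIF levels had a Pearson r of 0.932 for NFKBIE and 0.846 for NFKB1, given as a description over 7 cows.

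**Figure D1:**
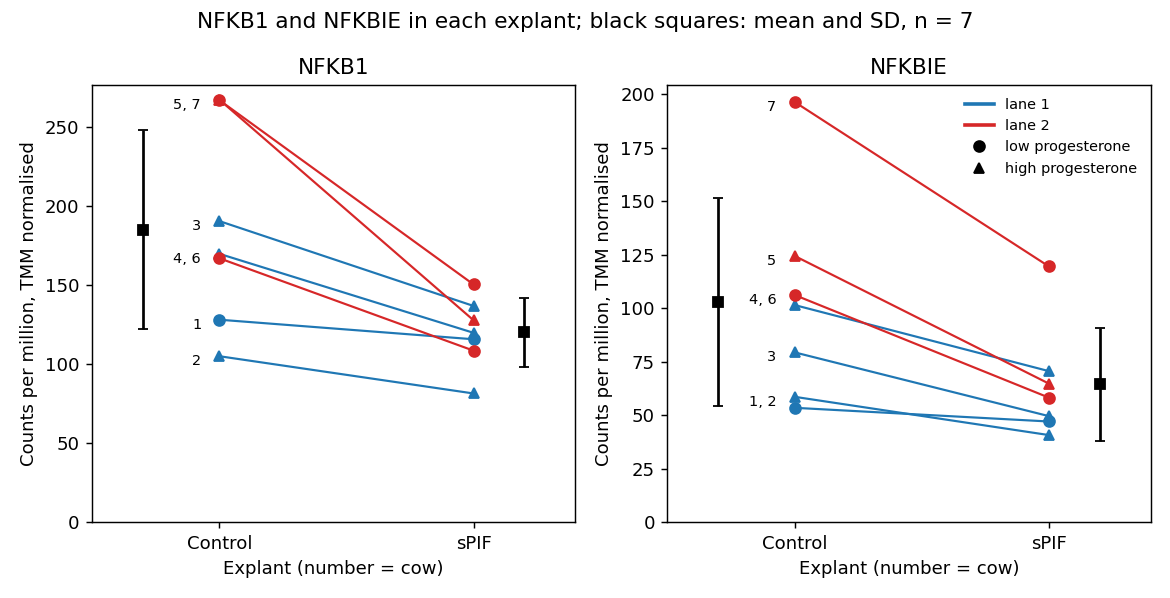
NFKB1 (left) and NFKBIE (right) in CPM for each explant, with a line joining the Control and the sPIF explant of a cow. Colour gives the lane, the marker the progesterone group, the number the cow, and black squares with bars the mean and SD of 7 explants. Every line falls, and the Control explants of cows 5 and 7 are the highest for both genes.

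These levels rest on many reads. The raw count of NFKB1 lay between 1364 and 5175 per library and that of NFKBIE between 683 and 3177. Counting error alone gave a standard error of 0.032 to 0.050 on the log2 difference within a cow for NFKB1 and of 0.038 to 0.070 for NFKBIE, well under the spread between cows. In cows 1 and 4 the raw counts of both genes were higher in the sPIF library, which was the deeper one in those cows, and the levels were lower only after scaling to library size. Cow 1 had the smallest difference of all for both genes.

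On the log2 scale, the sPIF minus Control difference of NFKB1 was -0.15, -0.37, -0.48 and -0.50 in cows 1 to 4 and -1.06, -0.62 and -0.83 in cows 5 to 7. For NFKBIE it was -0.18, -0.52, -0.68 and -0.52 in cows 1 to 4 and -0.94, -0.87 and -0.72 in cows 5 to 7. Every difference was negative, and cow 5 had the largest one for both genes. In the paired edgeR fit, with cow as a block, the log2 fold change was -0.57 for NFKB1 (standard error 0.107) and -0.64 for NFKBIE (standard error 0.0942).

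For scale, 153 of the 13233 tested genes had a more negative fold change than NFKB1 and 116 than NFKBIE. A lower level with sPIF in 7 of 7 cows was seen for 212 genes, or 1.6%, and for both members. No gene, or 0%, passed an adjusted p of 0.1 in edgeR in either direction, while 617 genes, or 4.66%, were lower and 444 higher at an unadjusted p under 0.05. DESeq2 called 78 genes lower, or 0.589%, and 22 higher. Nothing is read from these counts for the members, which the same contrast chose.

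The 2 genes divided their variation differently. Of the sum of squares of log2 CPM over 14 explants, cow accounted for 54.7% for NFKB1 and 70.9% for NFKBIE, and sPIF for 36.5% and 25.6%. What was left, the unevenness of the sPIF difference between cows, was 8.73% for NFKB1 and 3.50% for NFKBIE. The median tested gene had 75.6% for cow, 2.32% for sPIF and 19.4% left. The sPIF share and the share left follow for the members from how they were chosen, since a low p needs a high first and a low second value.

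The lanes are a comparison that the choice of genes did not use. In Control explants the mean NFKBIE level was 73.3 ± 21.9 CPM (SD, n = 4) in lane 1 and 142 ± 47.7 CPM (SD, n = 3) in lane 2. The 3 Control explants of lane 2, from 106 to 196 CPM, stood above the 4 of lane 1, from 53.5 to 102 CPM, though cow 6 exceeded cow 4 by little. Such a separation in Control explants held for 15.8% of the tested genes. In sPIF explants the means were 52.0 ± 13.0 CPM (SD, n = 4) and 80.9 ± 33.7 CPM (SD, n = 3), and the lanes overlapped.

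With the counts of both explants of a cow added, NFKBIE was higher in lane 2 by a log2 difference of 0.76 (standard error 0.265, adjusted p = 0.0632 in edgeR's quasi-likelihood fit, Benjamini-Hochberg over 13233 genes), and so passed the threshold of 0.1. The background was high, since 39.6% of the genes differed between lanes in either direction and 19.6% were higher in lane 2 by the same rule. That 1 of the 2 members was called is near that background. The call held in Control explants alone, with a log2 difference of 0.94 (adjusted p = 0.0524 by edgeR), where 12.5% of the genes were called higher in lane 2.

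The call for NFKBIE was lost in sPIF explants alone, with 0.64 (adjusted p = 0.123 by edgeR), and with progesterone group as a covariate, with 0.78 (adjusted p = 0.134). It was also lost without cow 1, with 0.65 (adjusted p = 0.133), without cow 2, with 0.66 (adjusted p = 0.141), and without cow 7, where the log2 difference came down to 0.43 (adjusted p = 0.189). Over its alternatives the adjusted p ranged from 0.0242 to 0.189, with the difference positive in each.

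For NFKB1 the lanes were closer. In Control explants the mean was 148 ± 38.8 CPM (SD, n = 4) in lane 1 and 234 ± 57.8 CPM (SD, n = 3) in lane 2, and cow 6 of lane 2 stood below cows 3 and 4 of lane 1. In sPIF explants the means were 113 ± 23.2 CPM (SD, n = 4) and 129 ± 20.9 CPM (SD, n = 3), with overlapping ranges. The log2 difference over both explants was 0.38 (standard error 0.214, adjusted p = 0.215 by edgeR) and did not pass the threshold. Without cow 3 it did, at 0.53 (adjusted p = 0.0821 by edgeR). The difference was 0.64 in Control explants alone and 0.18 in sPIF explants alone (adjusted p = 0.121 and 0.506 by edgeR). Without cow 2 it was 0.24 (adjusted p = 0.398 by edgeR). The adjusted p ranged from 0.0821 to 0.506 over its alternatives.

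CNN1, a gene of contractile smooth muscle and the 1 gene of a list of 6 smooth muscle markers that could be paired with an identifier, was higher in lane 2, as NFKBIE was. Its Control level was 26.1, 34.8, 44.4 and 89.2 CPM in cows 1 to 4 and 92.5, 100.5 and 159 CPM in cows 5 to 7. The order of the cows was the same as for NFKBIE except that cows 5 and 6 changed places. Its log2 difference between lanes was 1.28 (standard error 0.358, adjusted p = 0.0298 by edgeR), and with sPIF its fold change was -0.69 (standard error 0.138), a value by which the study had also selected it. Its sPIF by lane interaction was 0.020 (standard error 0.286, adjusted p = 0.984 by edgeR). Whether this differed from the interaction of NFKBIE, given below, was not tested. By the study's methods, the myometrium, the muscle layer of the uterus, was cut off the endometrium before culture. The part of muscle content in the levels of NFKBIE was not tested.

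DNAJB1, a chaperone gene of the stress response, is carried by 2 identifiers (ENSBTAG00000016874 and ENSBTAG00000045858), which the study had also selected by their change with sPIF. Their log2 fold changes with sPIF were -0.95 (standard error 0.279) and -1.31 (standard error 0.343), in the direction of the members. Between lanes they differed by 0.40 and 0.23 (adjusted p = 0.420 and 0.718 by edgeR). For the second the sign turned between kinds of explant, with 0.57 in Control and -0.50 in sPIF explants alone (adjusted p = 0.542 and 0.298 by edgeR). Their sPIF by lane interactions in edgeR were -0.63 (adjusted p = 0.669) and -1.36 (unadjusted p = 0.0356, adjusted p = 0.415). The part of stress in the levels of the members was not tested.

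The sPIF effect itself was compared between lanes through an interaction term, on the same differences within cows whose spread entered the choice of the genes. In lane 1 alone the log2 fold change was -0.37 for NFKB1 (standard error 0.0933) and -0.48 for NFKBIE (standard error 0.105). In lane 2 alone it was -0.83 (standard error 0.152) and -0.84 (standard error 0.138). For both genes the difference of each lane 2 cow was more negative than that of each lane 1 cow, a separation seen in this direction for 5.45% of the tested genes.

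**Figure D2:**
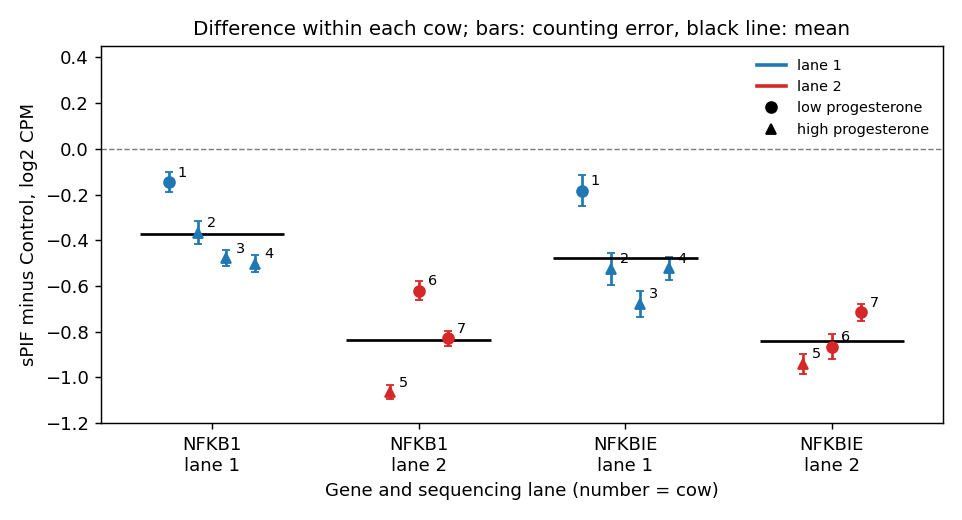
The log2 CPM of the sPIF explant minus that of the Control explant of each cow, for NFKB1 and NFKBIE in each lane. Points are cows, with the progesterone group as the marker and the counting standard error as the bar, and black lines are lane means. In lane 2 the points lie lower than in lane 1 for both genes.

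The interaction was -0.46 for NFKB1 (standard error 0.159), with an unadjusted p of 0.0168 and an adjusted p of 0.383 in edgeR. For NFKBIE it was -0.36 (standard error 0.153), with an unadjusted p of 0.0416 and an adjusted p of 0.425 in edgeR. Neither passed the threshold, and neither did so in DESeq2, where the adjusted p was 0.278 and 0.441. The choice by low p favours an even effect, so nothing is concluded from this for the members. Across all tested genes edgeR called 0, or 0%, while 1516 genes, or 11.5%, had an unadjusted p under 0.05, and DESeq2 called 62 lower and 113 higher.

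Between the progesterone groups the members differed less when all cows were kept. In Control explants NFKB1 stood at 183 ± 66.8 CPM (SD, n = 4) in the high and 187 ± 71.6 CPM (SD, n = 3) in the low group, and NFKBIE at 91.0 ± 28.4 CPM (SD, n = 4) and 119 ± 72.3 CPM (SD, n = 3). The low group spanned from cow 1, which had the lowest NFKBIE level, to cow 7, which had the highest, so the groups overlapped. In sPIF explants NFKB1 stood at 116 ± 24.3 CPM (SD, n = 4) and 125 ± 22.4 CPM (SD, n = 3), and NFKBIE at 56.4 ± 13.7 CPM (SD, n = 4) and 75.0 ± 39.0 CPM (SD, n = 3).

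On counts added per cow, the high group minus the low group was -0.041 for NFKB1 (standard error 0.268, adjusted p = 0.970 by edgeR) and -0.37 for NFKBIE (standard error 0.358, adjusted p = 0.852 by edgeR), on the log2 scale. No gene, or 0%, was called by edgeR, 3.46% of the genes had an unadjusted p under 0.05, and DESeq2 called 8 lower and 16 higher in the high group, with neither member among them. The sign was not settled. Without cow 7 the differences were 0.18 and 0.14, without cow 2 that of NFKB1 was 0.12, and with lane as a covariate they were 0.15 and 0.043. Without cow 1 they were larger and negative, at -0.18 and -0.67 (adjusted p = 0.769 and 0.330 by edgeR). With standard errors of this size, differences of this size were not detectable.

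The sPIF effect was close in value in the progesterone groups, on the same differences within cows that entered the choice of the genes. The log2 fold change was -0.60 in the high and -0.53 in the low group for NFKB1 (standard errors 0.145 and 0.159), and -0.66 and -0.59 for NFKBIE (standard errors 0.116 and 0.160). The interaction was -0.070 for NFKB1 (standard error 0.229) and -0.076 for NFKBIE (standard error 0.201), and both had an adjusted p of 1.00 by edgeR. By edgeR 0% of the genes were called for this interaction and 1.41% had an unadjusted p under 0.05, and DESeq2 called 0. The sign for both members turned without cow 1, with 0.11 for each, and without cow 5, with 0.084 and 0.016.

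The genes were also set against each other across cows. Over the 7 Control explants, log2 CPM of NFKB1 and NFKBIE had a Pearson r of 0.879 (exact two-sided permutation p = 0.0119 over 5040 pairings, 0.0238 after adjustment over the 2 kinds of explant) and a Spearman rho of 0.786 (exact permutation p = 0.0480, adjusted 0.0960). Cows 1 and 2 were low for both genes and cows 5 and 7 high for both. Without cows 2 and 5, the farthest from the median NFKB1 level, r was 0.910 over 5 cows. A correlation with a p was made only over 6 or more cows, so the r over 5 cows is a description. The lanes hold 4 and 3 cows, and no correlation is given within them. Both genes were higher on average in lane 2, so lane is shared by the points.

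The adjusted exact permutation p of the Control relation rose past 0.05 or reached it when 1 of cows 1, 2, 4 and 7 was left out. It was 0.0667 without cow 1 (r = 0.862), 0.0667 without cow 2 (r = 0.858), 0.05 without cow 4 (r = 0.886) and 0.0611 without cow 7 (r = 0.846). It stayed under 0.05 without cow 3 (0.0403), cow 5 (0.0444) and cow 6 (0.0389). It ranged from 0.0206 to 0.0667 over all alternatives, and r stayed positive in each.

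Over the 7 sPIF explants the relation was looser, with a Pearson r of 0.714 (exact permutation p = 0.0861, adjusted 0.0861) and a Spearman rho of 0.679 (exact permutation p = 0.110, adjusted 0.110). Without cows 2 and 7, the farthest from the median NFKB1 level, r was -0.101 over 5 cows. Leaving out both ends narrows the range, so nothing is concluded from this value. Without cow 2 alone r was 0.627, and without cow 7 alone it was 0.571. Without cow 3 it was 0.870 (adjusted exact permutation p = 0.0403), and the adjusted p ranged from 0.0403 to 0.229 over the alternatives. Whether the relation differed between Control and sPIF explants was not tested.

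The differences within cows ran together as well. Their Pearson r was 0.876 and their Spearman rho 0.857 over 7 cows, and over all 14 explants r was 0.868, both given without a p because the sPIF contrast chose the genes. Cow 1 had the smallest difference and cow 5 the largest for both genes. Cows 6 and 7 changed order, with cow 7 second for NFKB1 and cow 6 second for NFKBIE.

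**Figure D3:**
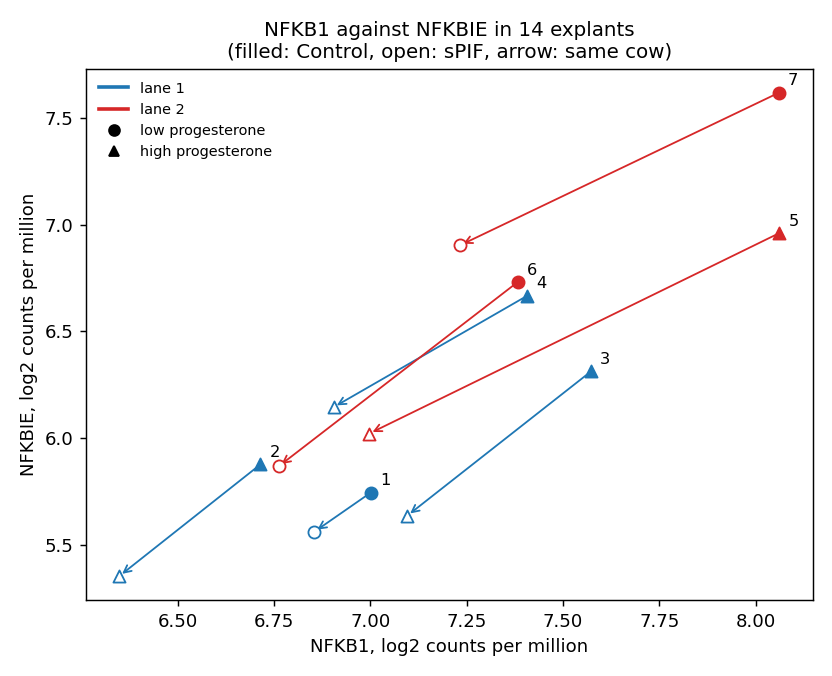
NFKBIE against NFKB1 in log2 CPM for 14 explants, with filled markers for Control, open markers for sPIF and an arrow from the Control to the sPIF explant of each cow. Colour gives the lane and the marker the progesterone group. All 7 arrows point down and to the left, and cow 7 lies above cow 5 at the same Control level of NFKB1.

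The balance of inhibitor and subunit was followed as the log2 of NFKBIE over NFKB1, in which library size cancels. Gene length does not cancel within a sample, so only differences between samples are read. In Control explants it was -1.26, -0.84, -1.26 and -0.74 in cows 1 to 4 and -1.10, -0.65 and -0.44 in cows 5 to 7. In sPIF explants it was -1.29, -0.996, -1.46 and -0.76 in cows 1 to 4 and -0.98, -0.89 and -0.33 in cows 5 to 7. Cow 7 carried the most inhibitor transcript per subunit transcript in both kinds of explant, and cows 1 and 3 the least.

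The balance moved little with sPIF, by -0.060 ± 0.146 on the log2 scale (SD, n = 7), with 5 cows lower and cows 5 and 7 higher. Both genes were chosen for a lower level in this same contrast. A small change of their balance therefore follows partly from that choice, and nothing is concluded from it. Between cows the balance spread more widely, from -1.26 to -0.44 in Control. The Control means were -1.02 in lane 1 and -0.73 in lane 2, a difference of 0.29 (exact two-sided permutation test over the 35 ways to divide 7 cows, p = 0.229, where the smallest p possible is 0.0286). For the high against the low progesterone group they were -0.98 and -0.78, a difference of -0.20 (exact permutation p = 0.429). With each cow left out in turn, the difference between lanes ran from 0.15 without cow 7 to 0.48 without cow 5, and that between progesterone groups from -0.44 without cow 1 to -0.031 without cow 7. Neither difference exceeded the spread between cows.

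Other genes of the pathway could be named only where the study's own list of genes changed by sPIF paired an identifier with a symbol. Of 92 other genes in lists of Rel subunits, IκB inhibitors, kinases, receptors, adaptors, feedback inhibitors and targets, 14 could be named, and all 14 passed the filter of 10 counts in every library. No kinase and no other IκB inhibitor was among them. Since the study selected these 14 on the same explants, their direction with sPIF is not independent evidence. With sPIF, 12 had a lower and 2 a higher level at an unadjusted p under 0.05 in edgeR, where 4.66% of all genes tested were lower. None passed an adjusted p of 0.1 in edgeR. All 14 did in DESeq2, where 78 of all genes were lower and 22 higher, but the study used that tool and that threshold for the list that names them, so this count follows from the naming. Their median log2 fold change was -0.58 against 0.0013 over all genes tested.

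Among Rel subunits, NFKB2 (ENSBTAG00000006017), which encodes the precursor of the subunit used by the non-canonical branch of the pathway, was the only other one named. Its level was 338 ± 117 CPM (SD, n = 7) in Control and 265 ± 63.0 CPM (SD, n = 7) in sPIF explants, with a log2 fold change of -0.32 (standard error 0.0844). The sPIF explant was lower in each of the 7 cows, with log2 differences from -0.57 to -0.12.

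Upstream of the Rel proteins, the receptor CD40 had a log2 fold change of -0.40 (standard error 0.0893) and its adaptors TRAF1 and TRAF2 had -0.44 and -0.38 (standard errors 0.112 and 0.0796). TNFAIP3, a deubiquitinating enzyme that ends NF-κB signalling and is itself induced by it, had -0.44 (standard error 0.0991). The values of these 4 genes lay close together and were smaller than those of the members.

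The 9 named targets spread more widely, from -1.81 to 1.18, with 7 lower and 2 higher. LCN2, a secreted iron-withholding protein, had 1.18 (standard error 0.184) and was higher in 7 of 7 cows, as was the complement component C3, which is named after its values were seen. IRF1, a transcription factor of interferon responses, had -0.77 (standard error 0.157), CSF1, a macrophage growth factor, had -0.76 (standard error 0.172), and TNFAIP6, which binds hyaluronan of the matrix, had -0.79 (standard error 0.180). The targets of the pathway that could be named did not all go the way of NFKB1 and NFKBIE. Of the 14 genes, 9 were lower in 7 of 7 cows, against 1.6% of all genes tested, a count that rests partly on their selection.

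Across lanes, a measure that did not select these genes, 4 of the 14 were higher in lane 2 and 2 lower at an adjusted p below 0.1 in edgeR. The background is again the 39.6% of all genes. The higher ones were NFKB2 at 0.53, TRAF2 at 0.83, CSF1 at 1.17 and IRF1 at 0.88 on the log2 scale, and the lower ones CX3CL1, also named after its values were seen, and C3 at -0.87 and -1.11. By edgeR, the calls for NFKB2 and IRF1 were lost with progesterone group as a covariate, with differences of 0.47 and 0.89 (adjusted p = 0.171 and 0.110), so that the size changed little. They were also lost in sPIF explants alone, with 0.40 and 0.62 (adjusted p = 0.171 and 0.136). Those for CX3CL1 and C3 were lost in Control explants alone, with -0.41 and -0.72 (adjusted p = 0.383 and 0.117). The median of the 14 was 0.54, against -0.00015 over all genes tested. For the progesterone groups 0 of the 14 were called and 0 had an unadjusted p under 0.05, against 3.46% of all genes tested.

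For the change of the sPIF effect between lanes 0 of the 14 were called by edgeR and 3 had an unadjusted p under 0.05, as did 11.5% of all genes tested. These were NFKB2 at -0.32, IRF1 at -0.62 and the chemokine CX3CL1 at -1.01. DESeq2 called CX3CL1 (adjusted p = 0.0790). The value was negative for 13 of the 14, and this count has no test. Over all genes tested the median was -0.0033, so negative values were the more common there too. The study selected the 14 on the same differences within cows, so nothing is concluded from the count. For the change between progesterone groups 0 were called and only TRAF1, at -0.49, had an unadjusted p under 0.05, as did 1.41% of all genes tested. It is named after its value was seen.

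In Control explants alone, 12 of the 14 had a positive Pearson r with NFKB1 and 11 with NFKBIE, with medians of 0.751 and 0.789. Over all tested genes 48.6% had a positive r with NFKB1 and 49.8% with NFKBIE, with medians of -0.029 and -0.0038. The values stood at 0.870 and 0.941 for NFKB2, 0.867 and 0.890 for TNFAIP3, and 0.932 and 0.798 for TRAF1. These are descriptions over 7 explants that share the 2 lanes, and have no p. All 14 genes come from the study's list of genes changed by sPIF, unlike the background of all tested genes. Genes of that list outside the pathway lists also had a high r in Control, such as CNN1 with NFKBIE (0.966) and CD3EAP with NFKB1 (0.961). The other genes of that list were not counted as a background, so nothing is concluded about the pathway.

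Lastly, each member was compared with every tested gene by Pearson r of log2 CPM over 14 explants. NFKBIE ranked 13 among 13232 genes by likeness to NFKB1, and NFKB1 ranked 58 by likeness to NFKBIE. Over the 7 differences within cows the ranks were 71 and 100. Both comparisons hold the change with sPIF by which the 2 genes were chosen, so these ranks rest partly on that choice. Over explants of 1 kind the ranks were 232 and 406 in Control and 310 and 850 in sPIF explants. There the change with sPIF enters only through 1 of its 2 sides, so these ranks are not wholly free of the choice.

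Only 86 tested genes have a symbol here, each selected by the study for a change with sPIF, so the nearest named genes come from that set. Over 14 explants, for NFKB1 they were CD3EAP (0.892), the immune cell surface protein CD83 (0.890), CD40 (0.890), NFKB2 (0.874) and TRAF1 (0.873). For NFKBIE they were NR1D1, a repressor of the circadian clock (0.956), IRF1 (0.947), NFKB2 (0.932), CD83 (0.929) and the purine enzyme ADA (0.924). CD83 and NFKB2 were in both sets. The sets were not the same in Control explants alone, where NR1D1 was among the 5 nearest to NFKB1 (0.900), CNN1 was the nearest to NFKBIE (0.966), and CD40 had 0.875 with NFKB1 and 0.867 with NFKBIE. These are descriptions and have no p.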

How the data were processed

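The authors trimmed the reads (Trimmomatic 0.36.0), mapped them to UMD3.1 (Bowtie2 2.2.6) and counted them per gene (featureCounts 1.4.6). The deposited values are raw counts, without normalization, and a row of totals was left out. Columns were assigned to libraries by their sample number. A minimum of 10 counts in each library was required, and edgeR 4.0.16 in R 4.3.3 was used (TMM, quasi-likelihood, Benjamini-Hochberg, threshold 0.1), with cow as a block for sPIF and its interactions, and on counts added per cow for lane and progesterone group. Log2 CPM used a prior count of 2. Exact tests used a threshold of 0.05. Both explants of a cow deviated together, with a correlation across genes of 0.412 to 0.764, against -0.559 to 0.543 for explants of different cows, ranges that overlap, and the pairing comes from the labels. Alternatives were DESeq2 1.42.0, limma-voom (limma 3.58.1), other scalings, filters and transformations, no block, single lanes or groups, and each cow left out. The fits were tested on simulated data. Named genes were the members, at most 4 per pathway list by lowest unadjusted p with sPIF, and the 5 nearest by correlation. The members and lists were chosen with earlier results of these data known. Symbols came from the study's list of 102 changed genes, since 0 identifiers matched the reference gene table. Of the marker lists for epithelium, stroma, endothelium, leukocytes, endometrium, smooth muscle and stress, only the last 2 had a gene with an identifier.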

Additional observations from a re-analysis of the deposited data

Results flagged for a closer look

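No value met the criteria for a closer look. In 27 groups of 4 or 7 cows, for the levels, differences within cows and log2 ratios of NFKB1 and NFKBIE, the gap between an extreme cow and its neighbour, relative to the whole range, was past Dixon's 95% limit in 0. Chance gives about 1 in 20 groups, or 1.35 here. No interaction of sPIF with lane or progesterone group passed an adjusted p of 0.1 for either gene by edgeR. The differences within cows entered the choice of the genes, which favours an even effect, so nothing is concluded from this.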

How the results depend on the processing

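Of 198 alternative values, 176 kept the direction and, where a test was made, the side of the threshold, among them every sPIF by lane interaction of the 2 genes and every log2 ratio test. The fold changes of NFKB1 and NFKBIE with sPIF, given without a call, were negative in each. Without the replicate block for cow, the fold changes were -0.62 and -0.68, and the pathway genes lower at an unadjusted p under 0.05 numbered 4 in place of 12. The pairing was left out for no other value of the 2 genes. For NFKBIE between lanes the call was lost in sPIF explants alone (0.64) and with progesterone as a covariate (0.78). Between progesterone groups the sign turned for NFKB1 in Control explants alone (0.0017) and for both genes with lane as a covariate (0.15 and 0.043). The cause was not tested. No alternative was added after seeing the data.

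With each cow left out in turn, the difference between lanes ranged from 0.24 to 0.53 for NFKB1 and from 0.43 to 0.92 for NFKBIE, and that between progesterone groups from -0.18 to 0.18 and from -0.67 to 0.14. The sPIF by progesterone interaction ranged from -0.21 to 0.11 for both. The Control correlation ranged from 0.846 to 0.914 and the sPIF correlation from 0.571 to 0.870. Fewer cows allow fewer pairings. The counting error of these genes was far under the spread between 7 cows, and the part of depth in the results was not tested.

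Counts over all genes moved more. For sPIF edgeR and limma-voom called 0 genes and DESeq2 78 lower and 22 higher, for progesterone group edgeR 0 and DESeq2 24, and for the sPIF by lane interaction edgeR 0 and DESeq2 175. At an unadjusted p under 0.05, sPIF gave 617 lower and 444 higher genes, against 136 and 64 with no replicate block and 505 and 547 with upper quartile scaling. The higher genes numbered 278 without cow 3 and 810 without cow 5. For progesterone group the 458 genes became 2040 without cow 1, 1249 without cow 5, 269 without cow 3, 251 without cow 4, 259 without cow 6, and 791 with no filter, which tests more genes. Without cow 5 the 1516 genes of the sPIF by lane interaction became 807 and the 187 of that with progesterone 608. Calls between lanes, 5236 genes, stayed between 3546 and 5637.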
